A study of Mus musculus with 4 samples.

Results

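The *Gata6*-high mesenchyme of day 11 gastruloids comprised 955 of the 8730 day 11 cells that had at least 2000 UMIs and a mitochondrial share under 20%, or 10.9% of them (95% interval, 10.3 to 11.6%). A member had at least 3 *Gata6* UMIs per 10000 UMIs and at least 2 UMIs of the gene, under 30 *Myl7* UMIs per 10000, no *Epcam* or *Cdh5* UMI and fewer than 2 *Wt1* UMIs. All other 7775 day 11 cells served as the main comparison. Because the members were picked on measured values of these same cells, every difference between them and other cells of day 11 is a description and carries no test.

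Gastruloids are aggregates of mouse embryonic stem cells that form tissue of all germ layers. Those studied here were made from the wild-type line Zx1 and extended in culture to produce cardiopharyngeal mesoderm and its cardiac and skeletal muscle. One single-cell library each was made at days 4, 5, 6 and 11 from at least 8 pooled gastruloids, so neither animals, lines nor cultures are replicated and every value describes 1 library. Together the libraries hold 31330 barcodes, and every group shares the same genotype and culture history up to its day.

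The medians of cells that passed were 25335, 28400.5, 25581 and 12082 UMIs at days 4, 5, 6 and 11, so day 11 was the shallowest library. It shares 18, 23 and 16 barcodes with days 4, 5 and 6. Members had a median of 10266 UMIs against 12435 in the other cells, and a median mitochondrial share of 1.98% against 2.43%. No doublets were removed. The highest 8% of doublet scores included 42 members, or 4.40%, and 8.44% of other cells. Levels are in CPM: the UMIs of a gene summed over a set of cells, per 1000000 UMIs of that set. CPM never stands for cardiopharyngeal mesoderm here. A ratio divides the level in members by that in the set named. Intervals are exact, at 95%, and cover counting error only.

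GATA6 is a zinc finger transcription factor of heart mesoderm, lateral plate mesenchyme and endoderm, and it acts in these tissues together with its relatives GATA4 and GATA5. Mesenchyme is the loose, migratory tissue that secretes the collagens and proteoglycans of the embryonic matrix. Around the heart, liver and body cavities it lies beside the mesothelium, an epithelium marked by *Wt1*, *Upk3b* and keratins, which can itself release mesenchymal cells.

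*Gata6* stood at 496 CPM in members (483 to 509) and at 137 in other cells (135 to 139), a difference that the selection fixed. Per cell, the lowest member held 3.0 UMIs per 10000, the median 4.54 and the highest 19.9. There were 357 members between 3 and 4 per 10000, 364 from 4 to under 6, and 234 with 6 or more. So 234 of the 955 members reached 2 times the limit.

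Just outside the limit, 449 cells met every other condition but held 2 to under 3 *Gata6* UMIs per 10000, and 10 more passed that level on 1 UMI. *Gata4* stood at 18.3 CPM in the 449 cells and 23.9 in the 357 members just inside. *Tcf21* stood at 67.0 and 79.7 in these groups, and *Col1a1* at 297 and 319. *Tbx20* was level at 28.1 and 28.3 CPM, and *Tnnt2* was lower just inside, at 338 and 247. Contractile-high cells, with 50 or more UMIs of 16 cardiomyocyte genes per 10000, numbered 20 among the 449 and 13 among the 357. In all, 1807 cells reached the *Gata6* level, of which 684 were removed for *Myl7*, 166 for *Wt1*, 30 for *Cdh5* and 9 for *Epcam*, with some removed for more than one gene. *Myl7* fell between 20 and 30 per 10000 in 19 members, and 31 *Gata6*-high cells were just outside at 30 to under 40. Of the members, 184 held 1 *Wt1* UMI and 384 held at least 1 *Myl7* UMI.

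Against the other day 11 cells, the members carried high levels of matrix and stromal genes and low levels of muscle, neural, endothelial and endodermal genes. Of 8330 genes with a mean of at least 10 CPM over both sets, 265 (3.18%) had a ratio of 2 or more and 437 (5.25%) a ratio of 0.5 or less. The largest ratio was that of *Pde1a*, a calcium and calmodulin-dependent phosphodiesterase, with 111 CPM in members and 14.8 in other cells, a ratio of 7.50 (6.99 to 8.05). Small leucine-rich proteoglycans, which bind collagen fibrils, were also among the 20 leading genes. *Bgn* (biglycan) stood at 175 against 41.7 CPM, *Lum* (lumican) at 140 against 34.5 and *Dcn* (decorin) at 209 against 64.3. *Ptn*, which encodes the secreted growth factor pleiotrophin, had by far the highest level of the 20 leading genes, 4781 CPM against 1394, a ratio of 3.43 (3.40 to 3.46).

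Fibrillar and beaded-filament collagens made up a further group among those 20 genes. *Col1a1* gave 374 against 114 CPM, a ratio of 3.28 (3.17 to 3.39). The ratios of *Col6a2*, *Col5a1* and *Col5a2* were 3.07, 3.06 and 2.98. *Postn* (periostin, a matrix protein of valves and tendons) had a ratio of 3.32 and *Mfap4*, a microfibril protein, one of 3.08. Surface and signalling proteins in the group were the netrin receptor *Unc5c* (ratio 3.41), the platelet-derived growth factor receptor *Pdgfrb* (3.1), the chemokine *Cxcl12* (2.96) and *Gucy1a1*, a subunit of the nitric oxide receptor guanylate cyclase (2.92). *Ccdc80*, *Bicc1*, *Fosb*, *Ecm1* and *Rhou* completed the 20, with ratios from 2.98 for *Rhou* to 3.59 for *Ccdc80*.

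The levels were set beside those of 2 other sets of day 11 cells. The first held 490 *Gata6*-free cells with at least 2 UMIs of *Pdgfra*, a growth factor receptor of many mesenchymal cells, under the same limits on the other genes; their median depth was 10202.5 UMIs. The second held 472 cells with at least 2 *Wt1* UMIs under the same limits on *Myl7*, *Epcam* and *Cdh5*; their median depth was 12619 UMIs. Of the *Wt1* cells, 140 also reached 3 *Gata6* UMIs per 10000 and 107 had none. Of the 20 leading genes, 11 had a ratio of 2 or more over *Gata6*-free mesenchyme, with a median of 2.13. Over *Wt1* cells 1 did, *Pde1a*, with a median of 1.24 and a lowest ratio of 0.898, so the *Wt1* cells held the other leading genes at levels like those of members.

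The list of 21 mesenchyme and matrix genes showed the same order. Against other cells, 15 of 20 tested genes had a ratio of 2 or more and 0 had one of 0.5 or less, with a median of 2.88 beside 1.02 for all genes tested. Against *Gata6*-free mesenchyme, 4 had a ratio of 2 or more (*Sparc*, *Lum*, *Dcn* and *Col6a2*) and 2 one of 0.5 or less, *Prrx1* and *Pdgfra*, the gene that chose that set. Against *Wt1* cells no gene of the list passed either limit, and the median was 1.22. There, 0.735% of all genes tested had a ratio of 2 or more and 0.539% one of 0.5 or less. A count of 0 in this list is thus near the general share. The summed level of the list was 6811 CPM in members, 5341 in *Gata6*-free mesenchyme and 5786 in *Wt1* cells. Per cell it ran from 3.54 to 296 UMIs per 10000 among members with a median of 66.5, so every member held some of these transcripts.

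**Figure D1:**
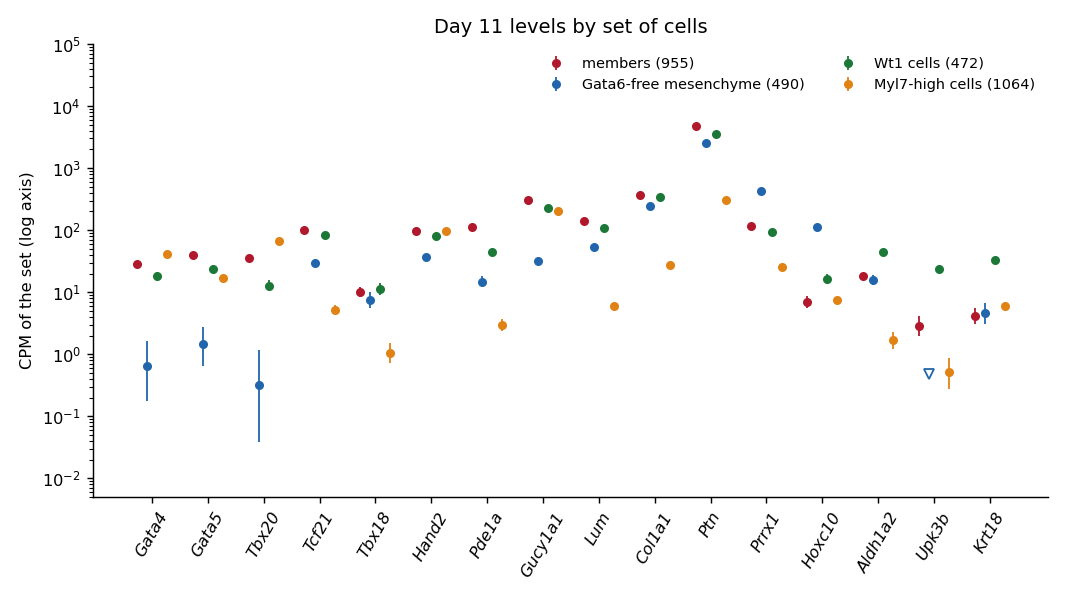
Level of 16 genes at day 11 in CPM (log axis) in members, *Gata6*-free mesenchyme, *Wt1* cells and *Myl7*-high cells. Points are pooled levels with exact 95% counting intervals, and the open triangle marks the level that 3 UMIs would give in a set with none; *Gata4*, *Gata5* and *Tbx20* are lowest in *Gata6*-free mesenchyme, and *Upk3b* and *Krt18* are highest in *Wt1* cells.

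The given markers of the population were *Gata6*, *Tbx18* and *Tnnt2*. *Tbx18*, a T-box factor of epicardium, sinus horn and some limb and body wall mesenchyme, was sparse. It stood at 10.1 CPM in members (8.33 to 12.1), 7.50 in *Gata6*-free mesenchyme, 11.3 in *Wt1* cells and 1.06 in cells with 100 or more *Myl7* UMIs per 10000, called *Myl7*-high cells here. A *Tbx18* UMI was found in 9.21% of members. In neural cells, chosen on *Sox2* and *Elavl3* as cells that should lack *Tbx18*, the share was 1.23% at a median of 11817 UMIs. After every cell was thinned to 5000 UMIs the shares were 4.57% and 0.267%, with 14 members and 19 neural cells left out as shallower. *Tbx18* was thus above the background of the neural cells and still absent from most members at this depth.

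*Tnnt2*, the cardiac troponin T, was found in 30.3% of members (19.2% thinned), in 16.9% of neural cells (8.11% thinned) and in 99.9% of *Myl7*-high cells. Its level in members was 230 CPM (221 to 239), against 28.1 in *Gata6*-free mesenchyme, 55.0 in neural cells and 6383 in *Myl7*-high cells. The name non-muscle holds for most members and not for all of them, as the contractile genes show further on.

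The *Gata6*-free mesenchyme was low in several transcription factors of heart and lateral plate mesoderm. Of 8277 genes in that comparison, 319 (3.85%) had a ratio of 2 or more and 275 (3.32%) one of 0.5 or less. Among 22 tested genes of the cardiac mesoderm factor list, 9 were in the first group and 3 in the second. The median ratio of that list was 1.22 and its summed level 2071 CPM in members against 2026, so single factors differed more than the list as a whole. The closest relatives of *Gata6* were nearly missing from *Gata6*-free mesenchyme, a set chosen for having no *Gata6* UMI. *Gata4* stood at 28.5 CPM in members and 0.638 in *Gata6*-free mesenchyme, a ratio of 44.6 (17.3 to 165). *Gata5* stood at 39.5 and 1.44, a ratio of 27.5 (14.3 to 60.5). *Tbx20*, a T-box factor of the heart, stood at 35.6 and 0.319, a ratio of 112 (30.7 to 924), where the *Gata6*-free level rests on 2 UMIs.

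Other factors were shared at unequal levels. *Tcf21*, a bHLH factor of epicardial, pharyngeal and visceral mesenchyme, stood at 98.9 CPM in members, 29.2 in *Gata6*-free mesenchyme and 83.4 in *Wt1* cells. It was found in 48.6% of members (32.4% thinned) and 5.61% of neural cells (1.87% thinned). *Hand2*, a bHLH factor of heart and limb, stood at 96.2, 36.6 and 81.8 CPM in the same sets. The forkhead genes *Foxc1*, *Foxc2* and *Foxf1* had ratios of 2.86, 3.0 and 2.61 over *Gata6*-free mesenchyme. *Prrx1*, a homeobox factor of limb and body wall mesenchyme, went the other way with 117 against 426 CPM. So did the 3 cardiac factors with a ratio of 0.5 or less, *Tbx3* (19.6 against 61.1 CPM), *Mab21l2* (15.4 against 80.6) and *Irx3* (6.75 against 92.6).

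Hox genes, which record position along the body axis, were also low against *Gata6*-free mesenchyme. Of 22 tested, 17 had a ratio of 0.5 or less against *Gata6*-free mesenchyme and 0 had one of 2 or more. The median ratio over all 8277 genes was 0.94, and 3.32% of them had a ratio of 0.5 or less. *Hoxc10*, a posterior member, stood at 6.93 CPM in members and 111 in *Gata6*-free mesenchyme, a ratio of 0.0622 (0.0486 to 0.0786). The anterior *Hoxb4* stood at 45.8 and 84.4 CPM. *Hoxb2* (ratio 0.663) and *Hoxd9* (1.18) were outside the limit. Against *Wt1* cells, 5 of 18 tested Hox genes had a ratio of 0.5 or less, beside 0.539% of all genes tested. Among them were *Hoxc10* with 0.421 and *Hoxc8* with 0.475. Against other day 11 cells, 10 of 22 Hox genes had such a ratio, beside 5.25% of all genes tested, and the Hox median was 0.529. The summed Hox level was 316 CPM in members, 993 in *Gata6*-free mesenchyme and 692 in other day 11 cells. It was lower than in members in *Myl7*-high cells (120) and endothelial cells (242).

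The other genes at the low end against *Gata6*-free mesenchyme included *Lix1* (6.05 against 111 CPM), a limb-expressed gene, and *Crabp2*, a carrier of retinoic acid (11.0 against 187). The insulin-like growth factor binding protein *Igfbp2* stood at 34.0 against 203 and the homeobox gene *Zfhx4* at 68.0 against 350 CPM. That set also held blood markers, with a summed level of 128 CPM against 1.23 in members, and the part of those cells in the differences was not tested.

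At the high end, *Ppp1r14c*, an inhibitor of protein phosphatase 1, stood at 102 against 4.79 CPM, a ratio of 21.3 (14.9 to 31.7). *Gucy1a1* stood at 303 against 32.2, a ratio of 9.41 (8.16 to 10.9). *Acta2*, the smooth muscle actin that is also made by early cardiomyocytes, stood at 322 against 32.2, a ratio of 9.98 (8.66 to 11.6). Its companion *Tagln* stood at 66.3 against 2.87 CPM. *Wt1* cells held *Acta2* at 311 and *Tagln* at 79.3 CPM, levels like those of members. In other day 11 cells *Acta2* stood at 655 and *Tagln* at 39.0 CPM. The late smooth muscle genes *Myh11* and *Cnn1* were at 0.965 and 5.61 CPM in members. A few cells carried much of this signal: the 48 members with the most UMIs of each gene held 60.8% of the *Acta2* and 82.3% of the *Tagln* UMIs, and *Tagln* was found in 14.9% of members. Among genes at 100 or more CPM in members, the 10 highest ratios were those of *Ppp1r14c*, *Gucy1a1*, *Acta2*, *Pde1a* (7.50) and 6 sarcomere genes: *Myh7*, *Myl3*, *Myl2*, *Tnni1*, *Ttn* and *Tnnt2*.

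Those sarcomere values came from few cells. The summed UMIs of 16 cardiomyocyte genes ran from 0 to 611 per 10000 among members with a median of 1.68. There were 27 members (2.83%) at 50 or more per 10000, a limit chosen after the values were seen, and these held 81.3% of the members' UMIs of the list. They ranged from 67.2 to 611 per 10000 with a median of 212, while the other 928 members had a median of 1.62 and a maximum of 46.1. The *Myl7*-high cells had a median of 445. A like level was reached by 2 *Gata6*-free cells (0.408%) and 9 *Wt1* cells (1.91%).

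**Figure D2:**
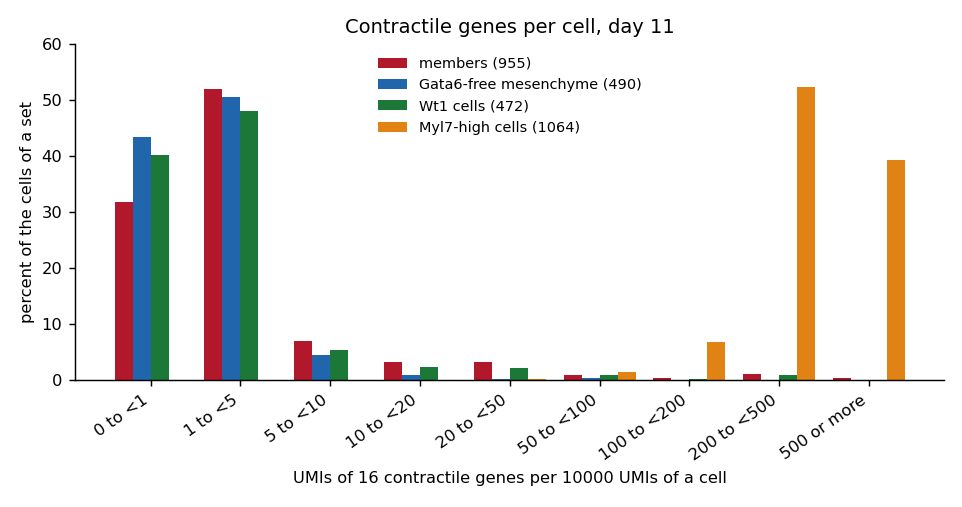
Percent of cells in each set (y axis, from 0) by summed UMIs of 16 contractile genes per 10000 UMIs of a cell (x axis, unequal bins), for members, *Gata6*-free mesenchyme, *Wt1* cells and *Myl7*-high cells. Most members are under 5 per 10000, and 27 of 955 lie at 50 or more, where nearly all *Myl7*-high cells lie.

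The contractile-high members carried genes of the ventricular and slow muscle type. *Myh7*, *Myl2* and *Myl3* are on the list that chose these cells, so their high levels were fixed by the choice. *Myh7*, the slow myosin heavy chain, stood at 2932 CPM in them and 3.21 in the other members. *Myl2*, the ventricular regulatory light chain, stood at 3331 and 9.18, and *Myl3*, the ventricular essential light chain, at 3880 and 10.9. In proportion to the atrial light chain *Myl7*, which the rule limits, *Myl2* was at 1.84 in these 27 cells and 0.0519 in *Myl7*-high cells, and *Myh7* at 1.62 and 0.0272. Other genes of the list were also higher over *Myl7* in the 27 cells. These were *Actc1* (2.96 against 0.471), *Tnnt2* (1.82 against 0.302), *Myl4* (1.15 against 0.427) and *Myh6* (0.421 against 0.136). *Nppa*, a hormone gene of atrial and trabecular muscle, had no UMI in the 27 cells, where 3 UMIs would have given 5.84 CPM. Their median *Myl7* was 19.2 per 10000, their median depth 17328 UMIs, and 4 were among the highest 8% of doublet scores. Of these cells, 15 fell in a cluster of day 11 cells led by *Myl2*, *Spink4* and *Myh7*, and 6 in one led by *Pnmt*, *Nupr1* and *Gal*. Whether they are single muscle cells or mixed droplets was not tested.

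Without the 27 cells, *Myh7* had a ratio of 0.915 over *Gata6*-free mesenchyme in place of 38.5, and 0.907 when such cells were left out of both sets. *Myl3* went from 23.7 to 1.40, *Myl2* from 22.1 to 1.28 and *Ttn* from 10.5 to 1.04. *Tnnt2* kept a ratio of 3.02, *Tnni1*, the slow skeletal and fetal troponin I, one of 6.25 and *Acta2* one of 9.29. Over *Wt1* cells, with contractile-high cells left out of both sets, *Tnnt2* had a ratio of 1.48, *Tnni1* 1.24 and *Acta2* 1.39. Over *Gata6*-free mesenchyme, 13 of 13 tested genes of the sarcomere list had a ratio of 2 or more with the 27 cells and 2 without them. The level of *Tnnt2* in the other 928 members was 84.8 CPM, against 55.0 in neural cells and 54.0 in endothelial cells, where it serves as a background. Those 2 sets still held 7 and 4 contractile-high cells, so the levels are not under the same filter. With such cells left out, *Tnnt2* stood at 20.3 CPM in *Gata6*-free mesenchyme. *Myl7* was limited in members and high by choice in *Myl7*-high cells, so proportions to it were shaped by the selection. In the 928 members *Tnnt2* was 0.899 of *Myl7*, against 0.302 in *Myl7*-high cells. *Myl4* (0.460 against 0.427) and *Actc1* (0.486 against 0.471) were near the proportion of the *Myl7*-high cells. *Myl2* (0.0973 against 0.0519) and *Myl3* (0.116 against 0.0733) were above it, and *Myh6* (0.0730 against 0.136) was below it. The part of free RNA in these low levels was not tested.

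The *Wt1* cells were the closest of the sets compared. Of 8163 genes, 60 (0.735%) had a ratio of 2 or more and 44 (0.539%) one of 0.5 or less. Mesothelial genes were among those on the low side, with 6 of 10 tested genes of the epicardium and mesothelium list at 0.5 or less and 0 at 2 or more. The 2 sets were chosen on opposite sides of a limit on *Wt1*, itself a mesothelial marker. The part of that choice in the difference was not tested. *Upk3b*, a uroplakin of mesothelium, stood at 2.89 CPM in members and 23.8 in *Wt1* cells, and all of its UMIs in members came from 2 cells. The epithelial keratins *Krt18* (4.12 against 32.8) and *Krt8* (3.60 against 25.6) followed the same order. *Aldh1a2*, which makes retinoic acid, stood at 18.1 against 45.0 CPM, a ratio of 0.401 (0.336 to 0.478). *Tcf21* and *Tbx18*, also on that list, had ratios of 1.19 (1.07 to 1.31) and 0.893 (0.669 to 1.2).

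On the high side, *Pde1a* stood at 111 against 44.6 CPM, a ratio of 2.50 (2.21 to 2.82), and *Ppp1r14c* had a ratio of 2.17 (1.93 to 2.45). *Tbx20* (35.6 against 12.8), *Shox2* (27.4 against 9.17) and *Tbx5* (20.6 against 9.96 CPM), factors of the heart and its inflow, were the 3 cardiac factors of 23 tested that had a ratio of 2 or more; without the contractile-high members 2 did. *Map1b*, *Tagln2*, *Apoe*, *Socs2* and *Gyg* had ratios from 1.82 for *Gyg* to 1.89 for *Map1b*, under the limit. Among genes at 100 or more CPM in members, *Myl3*, *Myh7* and *Myl2* had the largest ratios, 3.89, 3.67 and 2.64. Without the 27 contractile-high members these became 0.230, 0.0873 and 0.153, and with such cells left out of both sets 0.879, 0.831 and 1.30.

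Among genes at 100 or more CPM in *Wt1* cells, the lowest ratios were those of *Mylpf*, a fast skeletal muscle light chain (1.93 against 118 CPM), and *Tnnt1*, the slow skeletal troponin T (36.8 against 110). The *Wt1* cells held skeletal muscle genes at a summed level of 111 CPM, with *Myog* at 43.4, against 2.11 in members, and with contractile-high cells left out of both sets the ratios of *Mylpf* and *Tnnt1* were 0.738 and 0.907. Among the other low values were *Crabp1*, a retinoic acid carrier (98.9 against 214), the secreted ligand *Wnt4* (70.3 against 134) and the matrix protein *Tgfbi* (60.2 against 113 CPM), with ratios of 0.463, 0.524 and 0.531.

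Lists of other cell types were low in members, which the rule fixed in part. The rule kept cells with high *Myl7*, or with *Epcam* or *Cdh5*, out of members and left them among the other cells. Of those other cells, 1763 were contractile-high. Over all genes tested, 5.25% had a ratio of 0.5 or less against other day 11 cells. Of the 16 cardiomyocyte genes, 16 had a ratio of 0.5 or less against other day 11 cells, as had 8 of 9 neural, 6 of 7 endothelial, 5 of 5 endodermal and 3 of 3 blood genes tested. The endodermal *Afp* stood at 0.526 against 128 CPM, a ratio of 0.00410 (0.00150 to 0.00893), and the neuronal tubulin *Tubb3* at 4.74 against 135. Of the defining markers, *Myf5*, *Mymk*, *Sox17*, *Foxa1*, *Foxa2*, *Sox10*, *Ptprc* and *Csf1r* had no UMI in the 955 cells, where 3 UMIs would have given 0.263 CPM. The endothelial *Egfl7*, at 78.0 CPM against 131, and the neural *Nes*, at 37.1 against 71.5, did not pass that limit. *Epcam* and *Cdh5* were 0 by the rule.

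Lists for named kinds of mesenchyme gave genes on both sides. Against other day 11 cells, 3.18% of all genes tested had a ratio of 2 or more and 5.25% one of 0.5 or less. Of 11 tested genes of cushion and valve mesenchyme, 6 had a ratio of 2 or more over other cells and 1 had one of 0.5 or less; *Snai1* and *Snai2*, repressors of epithelial genes, had ratios of 2.93 and 2.55. *Msx1*, a defining gene of cushion mesenchyme, stood at 2.81 against 18.8 CPM. Of 10 tested genes of septum transversum and stellate mesenchyme, 3 had a ratio of 2 or more: *Rgs5*, a regulator of G-protein signalling of pericytes, at 50.5 against 12.3 CPM, the growth factor *Hgf* at 17.4 against 4.85, and *Foxf1* at 15 against 6.05. The muscle filament gene *Des* had a ratio of 0.5 or less, at 82.9 against 166 CPM. *Lhx2*, a defining gene of stellate cells, had 11.9 against 10.5 CPM. Against *Wt1* cells, 0 genes of either list passed a limit. In that comparison only 0.735% of all genes tested had a ratio of 2 or more and 0.539% one of 0.5 or less. A count of 0 is thus near the general share.

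Signalling lists differed in the number of genes past a limit against other cells. Over all genes tested, 3.18% had a ratio of 2 or more and 5.25% one of 0.5 or less. In the Wnt list 4 of 12 tested had a ratio of 2 or more and 0 one of 0.5 or less. These were the ligand *Wnt11* (16 against 6.32 CPM), the receptor *Fzd1* (24.3 against 11.2) and the secreted inhibitors *Sfrp1* (581 against 281) and *Sfrp2* (137 against 51.6). *Axin2* and *Lef1*, which canonical Wnt signalling induces, had ratios of 0.161 and 0.127 over *Gata6*-free mesenchyme. Over that set 1 of 14 tested Wnt genes had a ratio of 2 or more and 4 one of 0.5 or less. The summed Wnt level was 1177 CPM in members and 986 in that set. In the BMP list, 1 of 12 was high over other cells, the inhibitory *Smad7* (148.7 against 69.5), and 1 was low, the ligand *Bmp7* (5.17 against 26.4). *Bambi*, a decoy receptor, stood at 129 CPM against 20.4 in *Gata6*-free mesenchyme, a ratio of 6.29 (5.25 to 7.60). Over that set 2 of 12 tested BMP genes were high and 2 low, where 3.85% and 3.32% of all genes tested were.

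Of 9 tested retinoid genes, 2 had a ratio of 0.5 or less over other cells, the retinoic acid carriers *Crabp1* (0.298) and *Crabp2* (0.121), while the median of the list was 1.65. The retinoic acid receptors *Rara*, *Rarb* and *Rarg* were at 42.0, 61.6 and 27.2 CPM, with ratios of 1.25, 1.79 and 1.78. Of the 6 hedgehog and 5 FGF genes tested, 0 passed a limit in either direction. Of the TGF beta and Notch lists 1 of 9 and 1 of 6 had a ratio of 2 or more, *Ltbp3* (2.09) and *Hey2* (2.05). Without the 27 contractile-high members these counts were 2 for TGF beta and 0 for Notch, and the FGF list had 1.

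Immediate early genes, which are transcribed within minutes of many stimuli, were high. Of 7 tested genes of that list, 5 had a ratio of 2 or more over other cells, beside 3.18% of all genes tested. *Fos* stood at 498 against 194 CPM and *Egr1* at 435 against 196. In *Gata6*-free mesenchyme *Fos* was at 387 and in *Wt1* cells at 438, so the level was common to the mesenchymal sets. The heat shock gene *Hspa1a* was at 3.24 against 2.16 CPM. Of 14 proliferation genes, 0 had a ratio of 2 or more and 1, *Rrm2*, had one of 0.5 or less (29.1 against 61.6). With 3.18% and 5.25% of all genes tested past these limits, the counts of this list do not set it apart.

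The members were not uniform. Day 11 cells were clustered without *Gata6*, *Myl7*, *Epcam*, *Cdh5*, *Wt1*, *Tbx18* and *Tnnt2*, and 4 of 23 clusters held 90% of members. Cluster 7 held 285 of them among its 476 cells (59.9%), cluster 2 held 246 of 928, cluster 3 held 221 of 690 and cluster 4 held 109 of 666. The leading genes were *Colec11*, *Pde1a* and *Gal* in cluster 7, *Ptch1*, *Pmp22* and *Tmem45a* in cluster 2, *Plac8*, *Dcn* and *Shisa3* in cluster 3, and the mitotic genes *Nusap1*, *Top2a* and *Knl1* in cluster 4. The clusters are given by number, and because these genes shaped them the levels that follow describe the members in each cluster without a test. In the members of cluster 4, *Top2a* stood at 1268 CPM against 13.7 to 19.3 in those of the other 3, so the mitotic transcripts lay in cluster 4.

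*Tbx20*, *Tbx5*, *Shox2* and *Gata4* were highest in the members of cluster 7 among clusters 7, 2 and 3. *Tbx20* stood at 79.8 CPM there (70.4 to 90.2), at 11.0 in cluster 2 and 5.48 in cluster 3. The other 3 factors followed the same order, with 44.3, 55.2 and 48.7 CPM in cluster 7 against 2.28, 4.57 and 6.85 in cluster 3. *Tbx18* stood at 21.5 (16.7 to 27.2), 5.15 and 0.913 in clusters 7, 2 and 3, and *Tnnt2* at 216, 55.6 and 42.0. *Tcf21* was present in all 3, with 163, 70.7 and 77.2 CPM. *Gal*, the neuropeptide galanin, stood at 214 CPM in cluster 7 and 1.37 in cluster 3. *Map1b*, *Apoe* and *Acta2* were also highest in cluster 7, at 1050, 893 and 505 CPM. *Gata6* itself differed less, at 554, 481 and 490, and only 2 of the members in cluster 7 were contractile-high.

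In the members of cluster 2, *Foxf1* and *Ptch1* were higher than in those of clusters 7 and 3. *Foxf1* stood at 41.8 CPM there (34.7 to 50), 0.624 in cluster 7 and 1.83 in cluster 3. *Ptch1*, the hedgehog receptor and a target of the pathway, stood at 109, 20.6 and 36.5 CPM in clusters 2, 7 and 3. *Hand2* was highest in cluster 2, at 147 against 89.5 in cluster 7 and 56.6 in cluster 3, as were *Rgs5* (85.4) and *Hgf* (27.1). In the members of cluster 3, *Dcn* stood at 496 CPM, against 96.1 in cluster 7 and 160.2 in cluster 2. *Ecm1* stood at 274 against 76.7 and 68.3 CPM, and *Lum* at 238 against 111 and 129. *Hoxc8*, a trunk Hox gene, stood at 54.8 in cluster 3, 13.4 in cluster 2 and 2.18 in cluster 7. *Wnt4* was highest in cluster 3 as well, at 139 CPM. The Wnt agonist *Rspo3* was shared by clusters 2 and 3, at 90.5 and 95.5 against 14.0 in cluster 7.

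**Figure D3:**
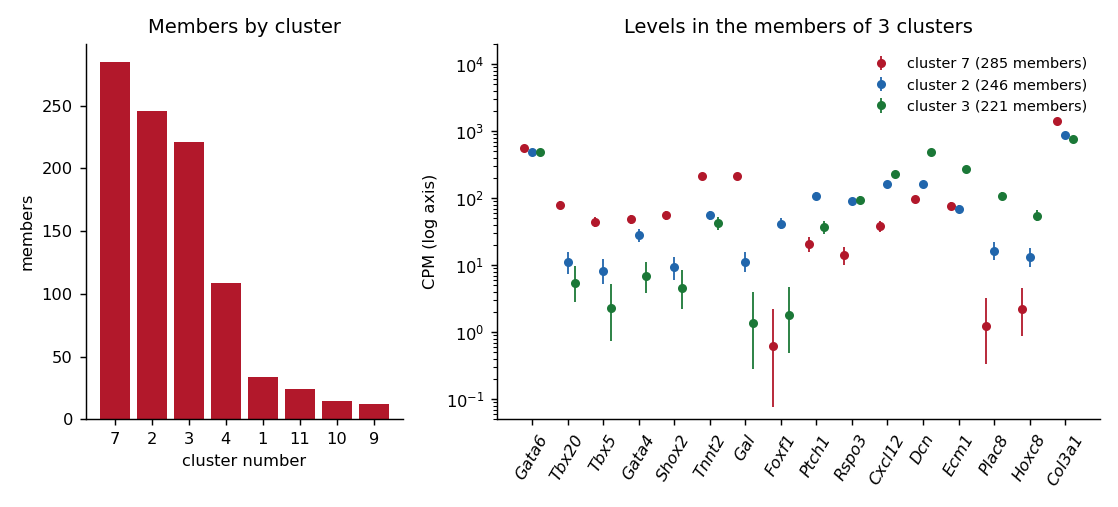
Left, number of members (y axis) in each of 8 day 11 clusters (x axis). Right, level of 16 genes in CPM (log axis) in the members of clusters 7, 2 and 3, with exact 95% counting intervals; *Tbx20*, *Tbx5*, *Shox2* and *Gal* are highest in cluster 7, *Foxf1* and *Ptch1* in cluster 2, and *Plac8*, *Dcn* and *Hoxc8* in cluster 3.

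Splitting members on *Tbx18* gave 23 cells with at least 2 UMIs and 867 with none; 65 with 1 UMI were left out. *Shox2*, a factor of the sinoatrial region, stood at 83.6 CPM in the *Tbx18* cells and 23.5 in the others, and *Tcf21* at 183 and 91.7. The largest ratio was that of *Actr3b*, an actin-related protein, 183 against 30.5 CPM (ratio 6.01, 4.55 to 7.84). Mitotic genes made up most of the 15 highest, among them *Hmmr* (4.56), *Cenpe* (3.41), *Knl1* (3.38) and *Ube2c* (3.22, 431 against 134 CPM). *Gal* (3.08) was again among them. *Dcn* was low at 40.4 against 224 CPM, and so was *Crabp1* at 21.6 against 104. Median depth was 12510 UMIs in the *Tbx18* cells and 10167 in the others, and cells of the mitotic cluster 4 had a median of 15088.5. The part of depth in the choice of these 23 cells was not tested.

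A split on *Tcf21* gave 268 members with at least 2 UMIs and 491 with none. *Gal* led with 122 against 59.8 CPM, a ratio of 2.05 (1.77 to 2.37). *Fbln1*, a matrix fibulin, stood at 481 against 282, *Pde1a* at 145 against 89.8 and *Serpine2*, a protease inhibitor, at 150.2 against 85.5 CPM. *Tbx18* stood at 16.9 and 6.16. The lowest ratios were those of *Myh7*, *Myl2* and *Myl3*, and contractile-high cells numbered 4 among the 268 and 20 among the 491. Median depth was 11381 and 9822 UMIs.

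Levels also followed the amount of *Gata6* across all day 11 cells that met the limits on *Myl7*, *Epcam*, *Cdh5* and *Wt1* and were not contractile-high. These numbered 3408 with no *Gata6* UMI, 1425 above 0 and under 3 per 10000, 704 from 3 to under 6 and 232 with 6 or more, at medians of 10292, 11473, 10306.5 and 9743 UMIs. *Gata4* stood at 1.01, 12.7, 25.0 and 37.5 CPM in these bins. *Tbx20* stood at 0.732, 10.9, 29.0 and 47.1, and *Tcf21* at 18.8, 57.8, 89.8 and 143. *Pde1a*, *Gucy1a1* and *Col1a1* also had their lowest level in the first bin and their highest in the last. The order was the reverse for *Hoxc10*, with 125, 30.9, 7.71 and 5.64 CPM, and for *Crabp2*, with 211, 70.0, 12.6 and 5.24. The bin without *Gata6* includes neural cells, with *Sox2* at 137 CPM. The last pair of bins holds the 928 members that were not contractile-high and a few cells with 1 *Gata6* UMI. Between these bins *Gata4*, *Tcf21* and *Gucy1a1* still differed in the same direction, while *Pde1a* was at 113 and 123.

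**Figure D4:**
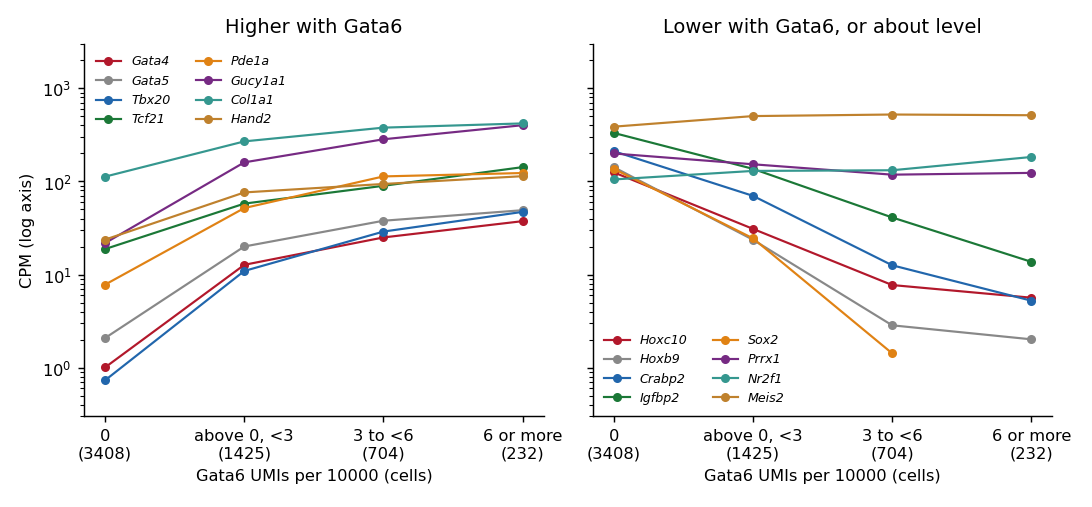
Level in CPM (log axis) of 16 genes in day 11 cells binned by *Gata6* UMIs per 10000 (x axis, number of cells in brackets), contractile-high cells left out. *Gata4*, *Tbx20* and *Tcf21* are higher in each bin than in the one before it, *Hoxc10* and *Crabp2* are lower, and *Sox2* is not drawn in the last bin, where it has no UMI.

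The same rule was applied to the earlier days. It passed 129 of 7202 cells at day 4 (1.79%), 33 of 7408 at day 5 (0.445%), 848 of 5850 at day 6 (14.5%) and 955 of 8730 at day 11 (10.9%). After thinning to 5000 UMIs the shares were 6.09, 3.46, 18.7 and 12.3%, with 30, 164, 115 and 340 shallower cells left out. Fewer UMIs make the limits of 0 and 1 UMI easier to meet, and 2 UMIs of 5000 already pass the *Gata6* limit, so the size of a share depends on depth. At both depths day 6 had the largest share, and days 4 and 5 the smallest. Contractile-high cells numbered 0, 0, 64 (7.55%) and 27 (2.83%) among the cells that passed. There is 1 library per day, and a difference between days cannot be told apart from one between libraries or culture media.

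The cells that passed had like *Gata6* levels, 390, 363, 504 and 496 CPM at days 4, 5, 6 and 11, and otherwise different content. *Hand1*, a bHLH factor of early lateral and extra-embryonic mesoderm, stood at 273, 308, 232 and 5.88 CPM. *Msx1*, a target of BMP signalling, stood at 168, 138, 58.2 and 2.81. *Gata5* and *Hand2* were highest at day 6, with *Gata5* at 7.89, 3.14, 110 and 39.5 and *Hand2* at 127, 175, 316 and 96.2 CPM. *Tbx18* had 0.282, 0, 20.1 and 10.1 CPM, and *Sfrp5*, a marker of inflow progenitors, 162 at day 6 and 1.49 at day 11. *Tcf21* and *Osr1*, by contrast, were highest at day 11; *Tcf21* stood at 34.3 and 98.9 CPM at days 6 and 11, and *Osr1* at 5.37 and 91.1.

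Matrix genes marked day 11 most clearly. *Col1a1* stood at 0.563, 4.72, 56.7 and 374 CPM at days 4, 5, 6 and 11, and *Col3a1* at 0, 0, 122 and 968. *Lum* stood at 0.472 and 140 at days 6 and 11, *Dcn* at 0.573 and 209, and *Pde1a* at 0.0521 and 111. *Ptn* stood at 12.7, 23.6, 1082 and 4781 CPM. In the cells that did not pass the rule *Ptn* was also highest at day 11, with 519 at day 6 and 1394 at day 11, as was *Col1a1*, with 21.8 and 114. The same held for *Fos*, at 49.3 and 498 in the cells that passed and 34.2 and 194 in the others. The keratin *Krt8* went the other way, from 487 CPM at day 5 to 3.60 at day 11 in the cells that passed and from 484 to 20.7 in the others. *Pcna*, a replication gene, stood at 222, 215, 120 and 52.7 CPM.

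**Figure D5:**
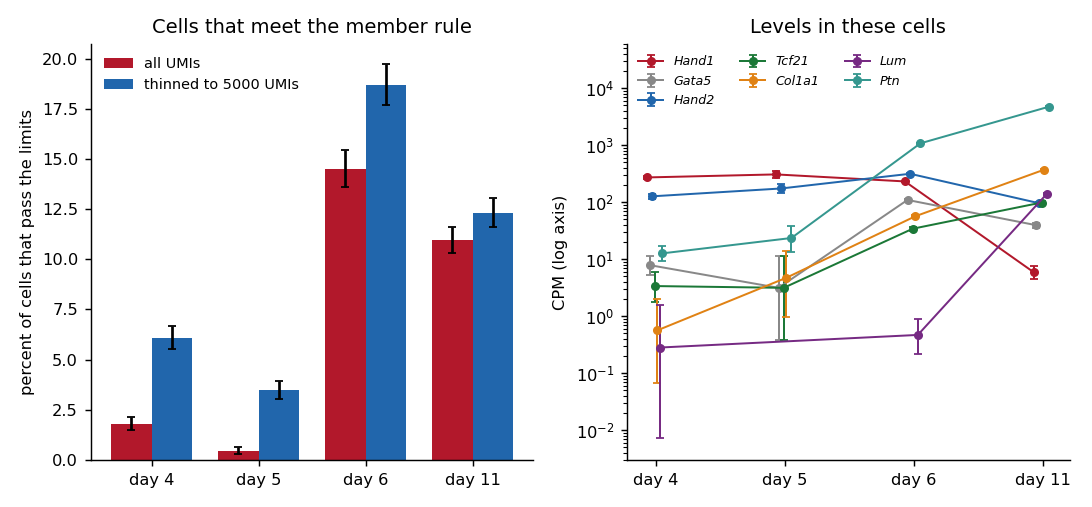
Left, percent of cells that meet the rule at each day (y axis, from 0), with all UMIs and after thinning to 5000 UMIs, with exact 95% intervals. Right, level of 7 genes in those cells in CPM (log axis) with exact 95% counting intervals; *Hand1* is at 308 at day 5 and at 5.88 at day 11, while *Col1a1*, *Lum* and *Ptn* are highest at day 11, and a day with no UMI is not drawn.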

How the data were processed

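The authors deposited, for 1 library per day, UMI counts per gene and cell without normalization. The submitters' processing notes give Cell Ranger 3.1.0 and build mm10; the day 11 matrix header has version 6.0.1 instead. The deposited counts were summed over cells here (Python 3.11.15, numpy 2.4.6, scipy 1.17.1) and scaled to CPM (per 1000000). Ratios have exact conditional binomial intervals, levels exact Poisson intervals and shares Clopper-Pearson intervals; no test was run. 1 result is left out of this account. The code was tested on simulated data. Genes needed a mean of at least 10 CPM in a comparison. Named genes are those with the largest and smallest ratios among genes at 100 or more CPM in the higher set, without mitochondrial, ribosomal and rule genes, and the genes of 24 lists. The members and lists were chosen with earlier results of these data known. Clustering used log-normalized values, 2000 variable genes, 30 components, 20 neighbours and Leiden at resolution 1 (scanpy 1.11.5, leidenalg 0.10.2). Thinning drew 5000 UMIs per cell at random. Alternatives were other limits on *Gata6*, *Myl7*, *Wt1*, UMIs, mitochondrial share, doublet score and gene level, a mean over cells, other thinning depths and other resolutions. Leaving out contractile-high cells was added after the data were seen. With 1 library per day, precision rests on cells and UMIs alone.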

Additional observations from a re-analysis of the deposited data

How the results depend on the processing

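Of 90 alternative values of the counts and shares that summarise the comparisons, 69 stayed close to the value reported and 21 moved. A *Gata6* limit of 5 per 10000 left 386 members and gave 111 genes at 0.5 or less against *Wt1* cells. With any gene of at least 3 UMIs, 3893 genes were at a ratio of 2 or more and 2601 at 0.5 or less against other day 11 cells, 1403 and 1886 against *Gata6*-free mesenchyme, and 635 and 1277 against *Wt1* cells. With a mean of 50 CPM these counts were 92 and 96, 85 and 54, and 11 and 5. Thinning to 3000 UMIs gave shares of 3.12, 1.59, 10.8 and 7.15% at days 4, 5, 6 and 11, and thinning to 10000 gave 2.68% at day 5 and 21.5% at day 6. At resolution 1.5, 7 clusters held 90% of members. Of 210 ratio values of named genes, 128 stayed close, 75 moved and 7 crossed 1. Leaving out contractile-high members brought *Myh7* to 0.915 over *Gata6*-free mesenchyme, and *Myl3*, *Myh7* and *Myl2* to 0.230, 0.0873 and 0.153 over *Wt1* cells; leaving such cells out of both sets gave *Myh7* 0.907 over *Gata6*-free mesenchyme, and *Myl3* 0.879 and *Myh7* 0.831 over *Wt1* cells. No paired analysis was possible because each day has 1 library. No replicate could be left out for the same reason.

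Depth limits the account in several ways. A member with 10266 UMIs, the median, can miss a gene at the level of *Tbx18*, so a share of cells with a UMI is not the share that expresses it. The *Gata6* limit cuts a continuous distribution. Counting intervals leave out variation between gastruloids, cultures and libraries, which 1 library per day cannot show. The contractile-high limit, 50 UMIs per 10000, was set after the values were seen.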

Other observations

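Interferon-stimulated genes were unevenly spread over the members. *Isg15*, a ubiquitin-like modifier, was found in 102 members (10.7%), and *Ifit3*, an antiviral RNA-binding protein, in 61. The 48 members with the most UMIs of each gene held 86.1% of the *Isg15* and 92.1% of the *Ifit3* UMIs. In the members of clusters 7, 2 and 3 *Isg15* stood at 53.0, 6.17 and 80.4 CPM, and *Ifit3* at 20.6, 2.06 and 28.8, so members of cluster 2 were low in both. *Isg15* was itself among the leading genes of cluster 3, so its high level there is a description only. The level of *Isg15* in all members was 41.0 CPM, against 25.9 in other day 11 cells, 10.2 in *Gata6*-free mesenchyme and 32.8 in *Wt1* cells. *Ifit3* had a ratio of 2.40 (2.02 to 2.84) over other cells.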
